A study of Mus musculus with 2 samples.

Results

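The genes described here are 9 regulators of red blood cell development, namely the transcription factors and cofactors Gata1, Klf1, Tal1, Nfe2, Zfpm1, Lmo2, Gfi1b and Ldb1, together with Epor, the receptor for erythropoietin. They were looked up by gene symbol in RNA-seq tables of splenic Treg cells, and all 9 were among the 20938 genes listed. The set was chosen from earlier results of these same libraries, in which several of its genes were lower after the deletion, so every difference between the libraries below is a description with no test.

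The study asked how reduced METTL14, a subunit of the m6A RNA methyltransferase, changed the transcriptome of Treg cells after islet transplantation. Treg cells were isolated from the spleen on day 7 after transplantation, and 1 library per genotype was analysed here. The control library came from littermate controls, labelled wild type and given in the methods as carrying the floxed Mettl14 allele without the deletion. The other library, called cKO here, came from Foxp3-Mettl14f/+ cKO mice, in which Cre driven by Foxp3 acts in Treg cells and removes 1 of the 2 Mettl14 copies, although the sample label describes it as a knockdown of Foxp3. Recipients of both genotypes were of the C57BL/6J background, were made diabetic with streptozotocin, received BALB/c islets and had no antibody treatment. Ages and the number of animals behind each library are not given in the sources used here. Red cells were lysed with ammonium chloride, non-CD4+ cells were depleted, and Treg cells were then selected on magnetic columns.

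The transcription factors of this set work as assemblies. GATA1 binds GATA motifs in DNA, and its cofactor FOG1, encoded by Zfpm1, contacts GATA1 without binding DNA in a sequence-specific way. TAL1 binds E-box motifs with an E protein, LMO2 bridges TAL1 to GATA1, and LDB1 joins such complexes and brings enhancers to promoters. KLF1 binds CACCC boxes, NFE2 pairs with a small MAF protein at globin and other erythroid genes, and GFI1B is a repressor that recruits the demethylase LSD1. EPOR signals through JAK2 and STAT5 to keep erythroid precursors alive. In adult mice the spleen is a site of red cell production, and several of these factors also act in megakaryocytes, mast cells and blood progenitors.

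The control library held 20239325 reads over 16187 detected genes and the cKO library 18327535 reads over 14563. A level is the deposited value, a gene's reads scaled by the size factor of its library. A change is given as log2(cKO / control) after adding 1 to both levels, and intervals are exact Clopper-Pearson 95% intervals that cover counting error only, since reads are not independent molecules. No replicates were analysed here, so no difference can be judged against the spread between them. As a check of the labels, Mettl14 counted 948 reads in control and 652 in cKO Treg cells, a change of -0.31 (-0.45 to -0.16). Foxp3 had 1547 and 1361 reads, which are levels of 1497 and 1548 and a change of 0.05 (-0.06 to 0.15). The lower value of Mettl14 depended on scaling, as its change was -0.06 with 17 T cell core genes set equal and 0.73 with the erythroid structural and haem genes set equal. All 12 Treg markers and all 17 T cell core genes examined were above 0 in both libraries. The same held for all 12 B cell genes and all 14 granulocyte genes, so detection alone does not tell which cells were present. Treg markers made up 0.0448% of control reads and 0.046% of cKO reads. These shares were 0.387% and 0.295% for T cell core genes, and 1.3% and 1.66% for granulocyte genes. Over the whole table, 41.6% of the genes that differed by 1.5-fold or more were higher in the cKO sample. This share became 56.2% after setting the T cell core genes equal (T cell core rescaling) and 82.7% after setting the erythroid genes equal. Without rescaling, it was 50.9% at a minimum mean level of 10 and 53.4% among genes above 0 in both libraries.

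Of the 9 members, 6 were at least 1.5-fold lower in the cKO sample, 0 were higher by that factor and 3 lay within it. Among all 16659 genes whose level averaged 1 or more, 24.2% were lower by 1.5-fold and 17.2% higher, and among the 10693 averaging 100 or more, as all members do, the shares were 8.71% and 11.9%. The median change of the members was -1.14, and the median of all genes was -0.04. Since the genes were chosen on this difference, the count is printed beside the background without being read against it. In a bulk sample, fewer cells of a type and less RNA per cell cannot be told apart. T cell core rescaling moved the median of all genes to 0.20 and that of the members to -0.89, and left 5 members at least 1.5-fold lower. Under the same rescaling 3325 of all 16659 genes were lower by 1.5-fold and 4265 higher.

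Gata1, the factor that drives the erythroid programme, had a level of 1379 in the control sample and 627 in the cKO sample, from 1426 and 551 reads. It was therefore at 45.4% of its control level, a change of -1.14 (-1.28 to -1.0). Gata1 is annotated on the minus strand of chromosome X, bases 7959260 to 7978071 of GRCm38. Zfpm1, which encodes its cofactor FOG1, was the control sample's most abundant member, with 5578 and 2971 reads. It lies on chromosome 8 from 122282141 to 122337251, where 1 further annotated gene that is not in the tables overlaps it. Its change of -0.68 (-0.74 to -0.61) was less than that of Gata1, so that per kb of exon there were 2.19 Zfpm1 for each Gata1 in the control sample (2.07 to 2.33) and 3.03 in the cKO sample (2.76 to 3.32). Zfpm1 was the only one of the 6 lower members to come within 1.5-fold, at -0.43, after T cell core rescaling.

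Tal1 had the widest gap of the 9 genes, with a level of 2502 in the control sample and 252 in the cKO sample. Its 2586 and 222 reads gave a change of -3.30 (-3.51 to -3.11), which is a level 9.91-fold lower. Its interval did not overlap that of any other member. Of the 10693 genes averaging 100 or more, 4 had a still lower value. These were Tnfsfm13 and Pira4, with 304 and 218 reads in the control sample and 0 in the cKO sample, Hbb-b1 with 2583 and 12 reads, and Vma21 with 356 and 26 reads. Tal1 lies on chromosome 4 from 115056426 to 115071755, and no other annotated gene overlaps it. Its neighbours among the listed genes did not share the size of the gap, since Stil had 762 and 478 reads and a change of -0.44, and Pdzk1ip1 had 68 and 49 reads and a change of -0.24.

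Among the genes for partners of TAL1 in the same complex, Lmo2 and Ldb1 were close to even, whereas Gata1 was lower, at -1.14. Lmo2, the bridging factor, on chromosome 2 between bases 103957986 and 103981878, had a level of 2165 in the control sample and 2000 in the cKO sample, and its change was -0.11 (-0.21 to -0.02). Ldb1, which is expressed in most cell types and lies on chromosome 19 between bases 46031570 and 46045214, had levels of 4671 and 4824 and a change of 0.05 (-0.01 to 0.11). Both signs depended on scaling, as Lmo2 was at 0.13 after T cell core rescaling and Ldb1 at -0.04 with library totals. Per kb of exon, Lmo2 stood at 1.96 for each Tal1 in the control sample (1.85 to 2.07) and at 17.9 in the cKO sample (15.6 to 20.7). Both genes have an annotated gene on the opposite strand that overlaps them, 4931422A03Rik for Lmo2 with 41 and 32 reads and Pprc1 for Ldb1 with 2863 and 2063 reads. Whether the counting used strand is not given in the sources used here, so reads in the overlaps cannot be assigned with certainty.

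Klf1, the CACCC-box factor of red cell precursors, spans bases 84901928 to 84905291 of chromosome 8 on the plus strand. It had 1804 and 519 reads and levels of 1745 and 590. Its change was -1.56 (-1.71 to -1.42), which leaves 33.8% of the control level. Gfi1b, the repressor, on chromosome 2 between bases 28609450 and 28621982, had 1134 and 360 reads and a change of -1.42 (-1.60 to -1.25). The intervals of Klf1 and Gfi1b overlapped each other and that of Epor. Nfe2, the globin locus factor, on chromosome 15 between bases 103248212 and 103258403, was the member with the highest value, with levels of 1589 and 1697 and a change of 0.09 (-0.01 to 0.20). Its interval included 0 on the deposited scale, and its change after T cell core rescaling was 0.34. Nfe2 and Gata1 had overlapping levels per kb in the control sample, and in the cKO sample there were 2.26 Nfe2 for each Gata1 (2.05 to 2.50).

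Epor was the member with the fewest reads in both libraries, 556 and 189. Its level was 538 in the control sample and 215 in the cKO sample, a change of -1.32 (-1.57 to -1.08). The ratio of Epor to Gata1 per kb was 0.421 in the control sample (0.381 to 0.465) and 0.370 in the cKO sample (0.312 to 0.438), and these counting intervals overlapped. Epor occupies bases 21958897 to 21963506 of chromosome 9, minus strand. The nearest listed gene, Swsap1, had 137 and 73 reads and a change of -0.67 (-1.11 to -0.25), an interval that overlapped that of Epor.

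**Figure D1:**
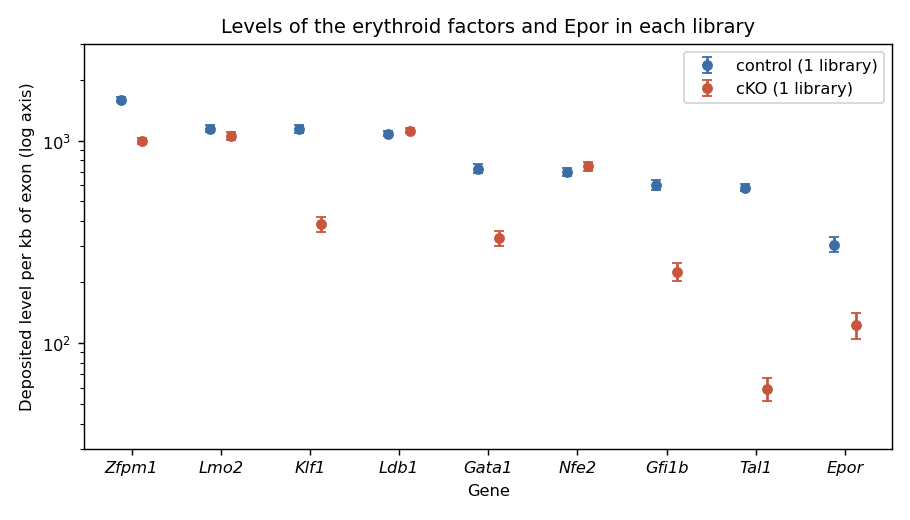
Level of each member per kb of merged exon (log axis) in the control sample (blue) and the cKO sample (red), with exact Poisson 95% intervals for counting error. Zfpm1 is highest in the control sample at 1592, and Tal1 moves from 584 to 58.9, the lowest point of the plot.

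The order of the members by level per kb of exon differed between the libraries. In the control library it ran from Zfpm1 at 1592 through Lmo2 at 1144, Klf1 at 1141, Ldb1 at 1083, Gata1 at 725, Nfe2 at 699, Gfi1b at 602 and Tal1 at 584 to Epor at 305. The counting intervals of neighbours overlapped from Lmo2 to Klf1, from Klf1 to Ldb1, from Gata1 to Nfe2 and from Gfi1b to Tal1. In the cKO library Ldb1 at 1119, Lmo2 at 1057, Zfpm1 at 997 and Nfe2 at 746 came first. Klf1 at 386, Gata1 at 329, Gfi1b at 225, Epor at 122 and Tal1 at 58.9 followed, so that 5 members which stood between 305 and 1141 in the control sample were all below the other 4. Only the intervals from Ldb1 to Lmo2, from Lmo2 to Zfpm1 and from Klf1 to Gata1 overlapped there.

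**Figure D2:**
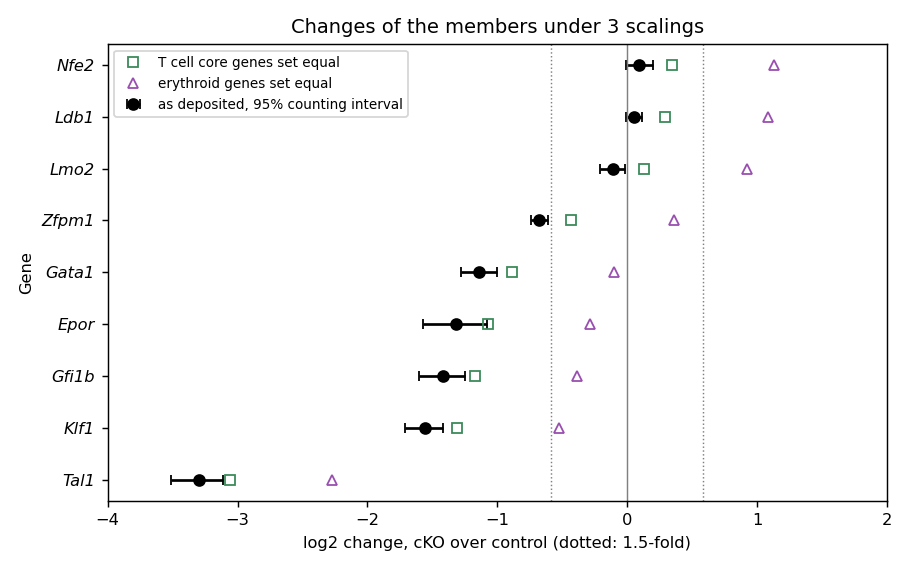
The log2 change of each member, cKO over control, as deposited (black, with 95% counting intervals), after T cell core rescaling (squares) and with the erythroid structural and haem genes set equal (triangles). Tal1 is lowest, at -3.30, -3.06 and -2.27 under the 3 scalings, and Nfe2, Ldb1 and Lmo2 lie above the other 6 members. A scaling shifts all genes alike, so the order is the same under each by construction.

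Since 6 members were lower in the same sample, the sequence upstream of their starts was examined for the motifs these factors bind. RefSeq promoter windows on GRCm38.p6 were found for 7 of the 9 members, 10 windows in all since Tal1 has several starts and so has Ldb1, and Nfe2 and Lmo2 were not matched. The 250 bases before each RefSeq start were searched on both strands. A GATA motif, written as AGATAA or AGATAG, or with T as first letter as TGATAA or TGATAG, was found in 5 of the 10 windows, against 26.5% of the 32851 windows of the same length in the table. The windows below are those of members at least 1.5-fold lower that held a GATA motif, shown 5′ to 3′ on the strand of the gene with the motif in capitals, and the base before the start is the last of each.
Klf1, chr8:84901732-84901981, plus strand: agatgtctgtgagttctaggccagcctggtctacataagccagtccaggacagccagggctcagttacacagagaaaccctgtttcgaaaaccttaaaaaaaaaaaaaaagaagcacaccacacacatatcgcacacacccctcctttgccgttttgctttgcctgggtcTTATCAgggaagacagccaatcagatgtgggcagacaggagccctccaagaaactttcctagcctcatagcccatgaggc
Tal1, chr4:115056176-115056425, plus strand: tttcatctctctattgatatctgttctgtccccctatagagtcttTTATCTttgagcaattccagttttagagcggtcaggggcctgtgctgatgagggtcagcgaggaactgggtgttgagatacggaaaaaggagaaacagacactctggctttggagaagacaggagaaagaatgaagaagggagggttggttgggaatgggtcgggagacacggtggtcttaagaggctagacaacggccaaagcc
Gfi1b, chr2:28621983-28622232, minus strand: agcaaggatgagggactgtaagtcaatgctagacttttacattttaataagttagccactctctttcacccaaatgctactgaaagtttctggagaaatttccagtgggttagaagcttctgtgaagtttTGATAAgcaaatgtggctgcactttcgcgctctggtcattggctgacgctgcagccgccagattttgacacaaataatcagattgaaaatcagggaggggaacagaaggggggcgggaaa
Epor, chr9:21963577-21963826, minus strand: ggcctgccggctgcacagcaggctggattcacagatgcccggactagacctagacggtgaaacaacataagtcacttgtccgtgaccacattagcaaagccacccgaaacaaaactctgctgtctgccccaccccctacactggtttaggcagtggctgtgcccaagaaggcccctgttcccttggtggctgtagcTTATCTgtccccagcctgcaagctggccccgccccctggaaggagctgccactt

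The first base of the motif lay 80 bases before the start of Klf1, 205 before that of Tal1, 120 before that of Gfi1b and 54 before that of Epor. The fifth window with a GATA motif belonged to Ldb1, which was even between the libraries. That window, not printed, held 2 motifs, with first bases 240 and 200 before the start. The windows of Gata1 and Zfpm1, both lower in the cKO sample, did not hold these letters. Neither did the other window of Tal1 or the other windows of Ldb1. A CACCC-type motif, written as CCNCNCCC, was found in 8 of the 10 windows, against 45.9% of all windows. An E-box written as CAGNTG was found in 3 windows, against 44.8%, and the NFE2 core TGAGTCA in 0, against 4.46%. A match is a stretch of letters and not a site shown to be bound, and these windows leave out the distal enhancers of these genes.

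The paralogs of the members, which share their DNA-binding or protein-binding domains, differed in both directions. Of 20 paralogs listed, 19 passed the minimum level, 7 were higher by 1.5-fold or more and 4 lower, and their median change was 0.25. After T cell core rescaling 9 were higher and 2 lower. Gata2, which precedes Gata1 in the erythroid lineage and also marks mast cells and progenitors, had 760 and 378 reads and a change of -0.77 (-0.96 to -0.59). Gata3, the T cell member of the family, had 1155 and 857 reads and a change of -0.20 (-0.33 to -0.07), or 0.05 after T cell core rescaling. Per kb of exon, Gata1 stood at 2.09 for each Gata3 in the control sample (1.93 to 2.26) and at 1.09 in the cKO sample (0.975 to 1.21).

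Lyl1, the closest relative of Tal1, had 673 reads in the control sample and 879 in the cKO sample, a change of 0.62 (0.47 to 0.77), or 0.53 with library totals. Per kb, Tal1 stood at 1.61 for each Lyl1 in the control sample (1.48 to 1.76) and at 0.106 in the cKO sample (0.0912 to 0.123), so the order of the pair was turned. Klf2, a factor of resting T cells, had 4880 and 7415 reads and a change of 0.84, and Klf6 had a change of 0.68. Lmo4 had 840 and 1221 reads and a change of 0.77 (0.64 to 0.90). Gfi1, the relative of Gfi1b in lymphocytes and granulocytes, had 441 and 357 reads and a change of -0.07 (-0.28 to 0.13), and Nfe2l2, which encodes the stress factor NRF2, had a change of 0.12. Further paralogs past 1.5-fold had few reads, among them Lmo1 with 39 and 63, Tal2 with 5 and 8, Ldb2 with 0 and 7, Ghr with 13 and 0 and Lmo3 with 5 and 0. Zfpm2 had 0 reads in both libraries.

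**Figure D3:**
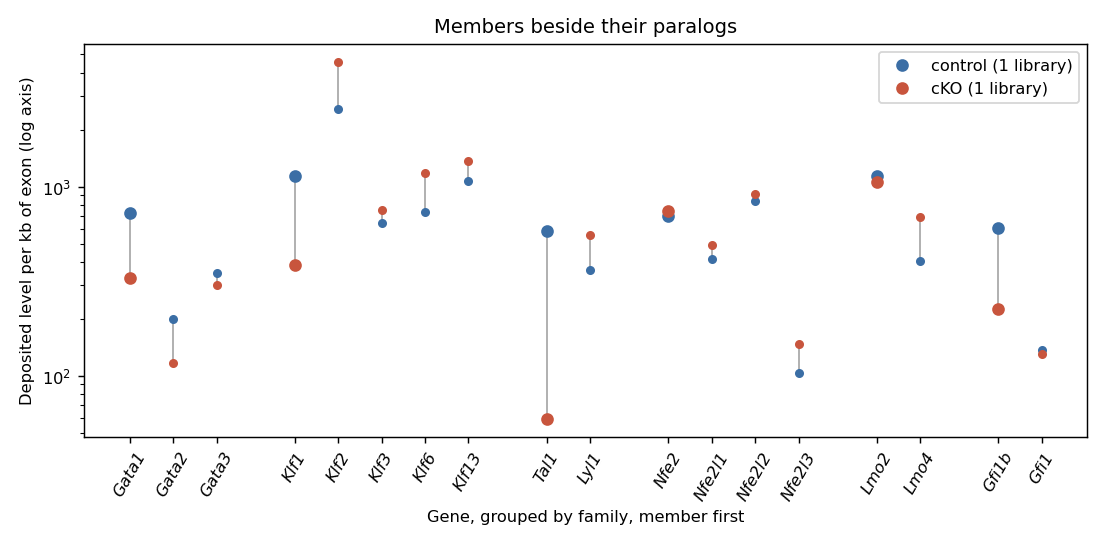
Level per kb of merged exon (log axis) of 6 members (large points) beside their paralogs (small points) in the control (blue) and cKO (red) libraries, with a line joining the 1 value of each library. Gata1, Klf1, Tal1 and Gfi1b are lower in the cKO sample, and Klf2, Klf6, Lyl1 and Lmo4 are higher there.

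Genes for proteins that bind the members differed little between the libraries. Of 34 genes for E proteins, SSBP and ETO2 components, small MAF proteins and the LSD1 and NuRD corepressors, 0 were at least 1.5-fold lower and 2 at least 1.5-fold higher, with a median change of 0.01. The 2 were Tcf4, an E protein gene with 942 and 1234 reads, and Maff, a small MAF gene with 71 and 116 reads, at 0.62 and 0.93. The lowest value in the list was that of Ssbp2, which encodes a partner of LDB1, with 947 and 547 reads and a change of -0.56. With library totals Tcf4 was at 0.53, within 1.5-fold, and Ssbp2 at -0.65, past it. The abundant cofactor genes Chd4, Crebbp and Ep300 changed by 0.15, 0.33 and 0.36. After T cell core rescaling 6 of the 34 were at least 1.5-fold higher.

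Downstream of EPOR the picture was mixed. The list of 23 signalling genes and targets found in the tables had a median change of 0.22, with 2 genes at least 1.5-fold lower and 4 at least 1.5-fold higher, or 2 and 7 after T cell core rescaling. Jak2, the kinase bound to EPOR, had 4727 and 5010 reads and a change of 0.32 (0.26 to 0.37), and Stat5a and Stat5b changed by -0.06 and 0.13. Per kb, Epor stood at 0.336 for each Jak2 in the control sample (0.307 to 0.367) and at 0.108 in the cKO sample (0.0927 to 0.125). Erfe, the hormone gene that erythroblasts switch on in response to erythropoietin, had 277 and 114 reads and a change of -1.04 (-1.38 to -0.73), and Kit, the stem cell factor receptor gene, had 2960 and 1408 reads and a change of -0.84. The 4 higher genes were Lyn at 1.17, Socs2 at 0.94, Socs3 at 0.76 and Sh2b3 at 0.71, which encode a Src family kinase and inhibitors of cytokine receptor signalling. All of these genes act in other blood cells as well.

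Other regulators of red cell development also differed in both directions. Of 20 such genes, 5 were at least 1.5-fold lower, 3 at least 1.5-fold higher and 12 within 1.5-fold, with a median change of 0.02. Sox6, which acts with BCL11A to silence embryonic globin genes, was lowest with 983 and 329 reads and a change of -1.34 (-1.53 to -1.16). Nfia at -0.83, Trim58 at -0.84, Myb at -0.81 and Cdkn2c at -0.63 were the other lower genes. After T cell core rescaling 2 of the 20 were lower and 4 higher, with Nfia at -0.58, Myb at -0.57 and Cdkn2c at -0.38 no longer past 1.5-fold. E2f2, a cell cycle factor that is a known KLF1 target in red cell precursors, was highest with 1229 and 2150 reads and a change of 1.04 (0.94 to 1.14). Bcl11a at 0.63, which is also a B cell factor and was at 0.54 with library totals, and Zfp36l2 at 0.84 were the others. The most abundant genes of the list besides Zfp36l2 were Ikzf1 at 0.13 and Hmgb2 at -0.21.

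Progenitor and opposing lineage factors differed in both directions as well. Of 15 genes, 7 were at least 1.5-fold lower and 2 at least 1.5-fold higher, and 4 of the 15 (Gata2, Myb, Kit and Runx1) also belong to the lists above. The balance turned after T cell core rescaling, with 4 lower and 5 higher, as Gata2 at -0.53, Meis1 at -0.50 and Myb at -0.57 came within 1.5-fold. The progenitor genes Cd34 and Hoxa9 had 367 and 89 reads and 60 and 12 reads, changes of -1.80 and -2.01, Meis1 changed by -0.75, and Mecom had 45 and 0 reads. Spi1, the myeloid and B cell factor whose protein opposes GATA1, had 2313 and 3220 reads and a change of 0.71 (0.63 to 0.79), and Hhex had a change of 1.10. Per kb, Gata1 stood at 0.659 for each Spi1 in the control sample (0.617 to 0.705) and at 0.183 in the cKO sample (0.167 to 0.200). Fli1 and Runx3, the most abundant genes of the list after Myb, changed by 0.56 and 0.48.

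The products that the erythroid factors control were examined beside the members. Of 44 membrane, haem and globin genes found, 41 passed the minimum level, 30 were at least 1.5-fold lower and 2 at least 1.5-fold higher, with a median change of -1.05, or -1.02 with the 1 gene that had no read in 1 library set at a floor of 3 reads. In these counts the globin gene Hbb-b1 stood among the lower and Hbb-bs among the higher genes, although their reads are summed below. Without the globins, 28 of 34 were at least 1.5-fold lower, with values from -1.41 for Dmtn to 1.60 for Tmod1. Tfrc, the transferrin receptor gene, had 13678 and 4780 reads, Car2, a carbonic anhydrase gene, had 13342 and 4666, and both changed by -1.28. Gata1 lay inside this list, with 15 of the 34 genes lower and 19 higher. Tal1, Klf1 and Gfi1b lay below all 34, although the intervals of Klf1 and Gfi1b overlapped that of Dmtn (-1.64 to -1.19). Nfe2 lay near the upper end, with 33 of the 34 below it.

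A few erythroid genes were even between the libraries like Nfe2, and these were picked for mention after their values were seen. Alas2, the first enzyme of erythroid haem synthesis, had 519 and 456 reads and a change of 0.05 (-0.14 to 0.23). Slc25a37, the mitochondrial iron importer gene, changed by 0.08, and Epb41, which is also expressed outside red cells, by -0.01. The alpha-globin genes Hba-a1 and Hba-a2 changed by 0.12 and 0.44, and the beta-globin genes Hbb-bt and Hbb-b2 by -0.06 and 0.12. The beta-globin symbols Hbb-b1 and Hbb-bs had opposite values, with 2583 and 12 reads for Hbb-b1 and 3 and 2626 for Hbb-bs. Their sequences were not compared, and whether reads were assigned to them differently in the libraries was not tested. Outside the list counts and medians they are therefore read only as a sum of 2586 and 2638. All 10 globin genes together had 10405 and 10557 reads, whereas the 34 other erythroid genes had 104053 and 44771. Globins thus gave 10 reads for every 100 reads of the other erythroid genes in the control sample and 23.6 in the cKO sample. The 6 lower members gave 12.6 and 10.7 on the same scale. These 6 were picked for being lower in the cKO sample, so no conclusion is drawn from their ratio. All 9 members together had 21793 reads in the control sample and 12305 in the cKO sample.

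With the erythroid structural and haem genes set equal between the libraries, the members spread around 0. Under this rescaling the median of all genes was 0.99, and the median of the members was -0.10. Tal1 was at -2.27 and alone at least 1.5-fold lower, Klf1 at -0.53, Gfi1b at -0.39 and Epor at -0.29 lay below 0, and Gata1 was at -0.10. Zfpm1 turned to 0.36, and Lmo2, Ldb1 and Nfe2 were at 0.92, 1.08 and 1.13. Of all 16687 genes past the minimum level under this rescaling, 2485 were at least 1.5-fold lower and 11908 at least 1.5-fold higher.

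**Figure D4:**
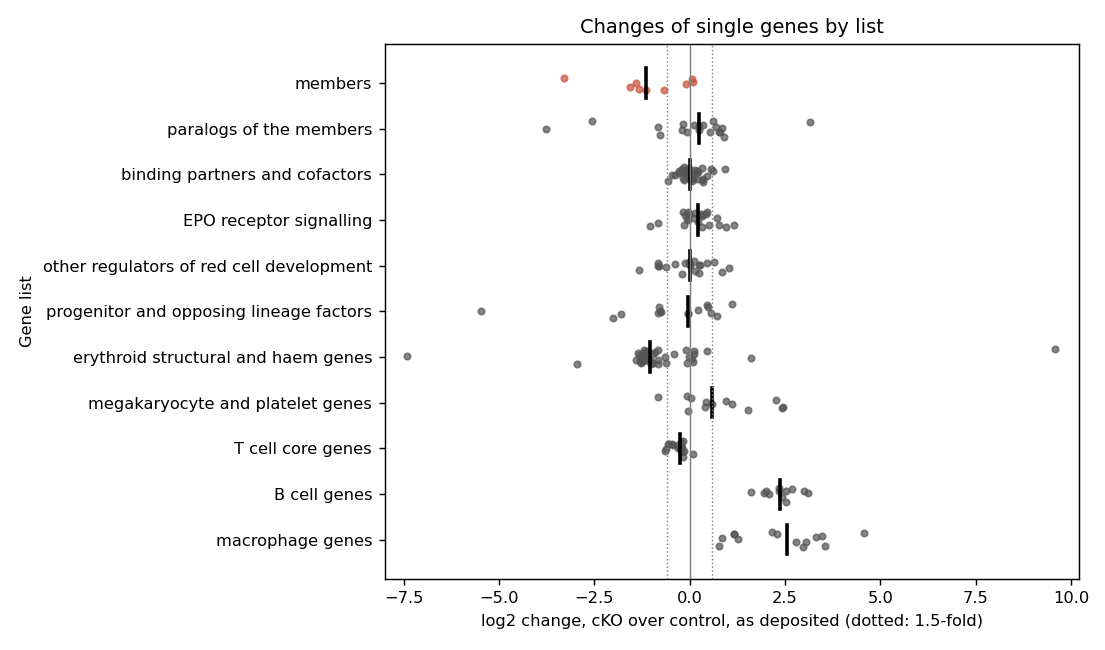
The log2 change, cKO over control as deposited, of each gene past the minimum level in 11 lists, with a bar at the median of each list and dotted lines at 1.5-fold. The members (red, median -1.14) lie near the erythroid structural and haem genes (median -1.05), and the partners (0.01) and EPO receptor signalling genes (0.22) lie around 0, while the outermost points of the erythroid list are Hbb-b1 and Hbb-bs.

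Markers of other cells that can express members of this set were measured beside them, and their part in the members' values was not tested. The 14 megakaryocyte and platelet genes summed to levels of 2847 and 3439, with 7 at least 1.5-fold higher and 1 lower. Of the defining genes Itga2b had 377 and 329 reads and Pf4 58 and 97, and Gp6 was at 0 in both libraries. The 12 mast cell, basophil and eosinophil genes summed to 3576 and 4192, with 4 higher and 4 lower, Cpa3 at -0.92 among the lower and Mcpt4 at 0 in both. The 10 endothelial genes, a cell type that expresses Tal1 and Lmo2, summed to 3364 and 4078, but Pecam1 alone gave 2263 and 3225 of this. Of the 9 past the minimum level 4 were lower and 1 higher, with a median of -0.54. Cdh5, a defining gene, had 84 and 35 reads, and Stab2, a gene of sinusoidal endothelium, had 31 and 158, a change of 2.54. Of these genes Emcn was at 0 in both libraries and Tek had 22 and 0 reads.

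Markers of other cell types differed between the same libraries. All 12 B cell genes were at least 1.5-fold higher, with summed levels of 9054 and 48726, and all 14 macrophage genes were higher as well, with 5736 and 17628. B cells and macrophages express genes such as Lmo2, Lyl1, Spi1 and Lyn. The 14 granulocyte genes summed to 254621 and 345253, with 3 at least 1.5-fold lower and 2 higher. The 3 lower genes were Mpo at -1.03, Prtn3 at -1.17 and Ctsg at -1.38, which encode granule proteins made early in granulocyte development. These 3 changes were of similar size to that of Gata1. Elane, another such gene, had a smaller change of -0.53 (-0.64 to -0.43), within 1.5-fold. The relation of these genes to the members was not tested. The 17 T cell core genes summed to 75679 and 61531, with 2 of the 17 at least 1.5-fold lower. The erythroid genes without globins summed to 100660 in the control sample, more than the T cell core genes, and to 50912 in the cKO sample. No library can be left out of this comparison, since each genotype has 1.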

How the data were processed

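RNA-seq was performed on 2 libraries of splenic Treg cells, 1 control and 1 cKO. Per the labels the authors aligned reads to mm10 with TopHat, and the submitters' processing notes also name bcl2fastq 2.0, STAR, StringTie and DESeq2 without a role. The counter and annotation are not given in the sources used here. The deposited values are a signal, namely read counts scaled by the size factor of each library. A single read is worth 0.967 (control) or 1.14 (cKO), and dividing by this worth gave back the reads, 100% of them whole to within 0.01. Changes used a pseudocount of 1, a minimum mean level of 1 and a threshold of 1.5-fold. A fold change on that scale understates the change of low genes. Without replicates no test between genotypes was possible, and no p-values are given.

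The members and lists were chosen with earlier results of these data known. Lists were written from general knowledge. Named were all members, the paralogs, partners and signalling genes past 1.5-fold, the 3 most abundant and the 2 extreme genes of the other lists described, annotated neighbours, and the 5 genes nearest to Gata1 in change. Some genes that this rule names are not reported here. Of the listed genes, 20524 matched GENCODE vM21 on GRCm38 (mm10) by symbol, and merged exon lengths of its basic set gave levels per kb. Ahsp, Trac and Fam132b were not matched in the tables. Alternatives were other pseudocounts, filters and scalings, and count tests on the recovered reads. The exact binomial test was first run on simulated reads that held counting error only, and edgeR's exact test was not run on simulated reads. Calculations ran in Python 3.11.15 (scipy 1.17.1, numpy 2.4.6, pandas 2.3.3), plots in matplotlib 3.10.9, and count models in edgeR 4.0.16 and DESeq2 1.42.0 under R 4.3.3.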

Additional observations from a re-analysis of the deposited data

How the results depend on the processing

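No paired analysis was possible because only 1 library per genotype was analysed, and for the same reason no library could be left out. The median change of the 9 members, -1.14, was -0.89 after T cell core rescaling and -0.10 after rescaling to the erythroid structural and haem genes. The 8 other alternatives left it between the median of the members' lower interval limits and the median of their upper limits. Of 90 values of single members under the alternatives, 70 stayed within their counting intervals, 19 moved beyond them and 1 reversed, that of Zfpm1 from -0.68 to 0.36 after the latter rescaling. Of 140 values of list medians, 110 stayed and 30 moved. A scaling shifts all genes alike, so these moves follow from its construction. The number of genes at least 1.5-fold lower, 4028, was 2035 at a minimum mean level of 10, 1904 among genes above 0 in both libraries, 2668 by an exact binomial test on the recovered reads at an adjusted p under 0.1, and 569 by edgeR's exact test with an assumed coefficient of variation of 0.4. The number at least 1.5-fold higher, 2864, was 1722 with a threshold of 2-fold and 229 by edgeR's exact test, but 4265 after T cell core rescaling and 11908 after rescaling to the erythroid genes, where 3325 and 2485 were lower. These count tests, run on 14863 genes, compare the 2 libraries and not the genotypes.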

Other observations

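Among the 5 genes of 9625 with a mean level of at least 200 whose change over the 2 libraries was nearest to that of Gata1 were Adk with 1138 and 440 reads, Paqr9 with 760 and 291, Spire1 with 2162 and 845, and Tspan33 with 1098 and 429. In all, 69 genes lay within 0.1 of the change of Gata1. Among the genes next to members on the chromosome, Dnase2a, which lies 3269 bases beyond Klf1 on the same strand and encodes the nuclease that macrophages use to clear expelled red cell nuclei, had 668 and 180 reads and a change of -1.65 (-1.90 to -1.42). Its interval overlapped that of Klf1, while Gcdh on the other side of Klf1 had 292 and 298 reads and a change of 0.26. Hdac6 beside Gata1 changed by 0.17, Gtf3c5 beside Gfi1b by -0.46 and Tsc1 on its other side by 0.09. These neighbours were named by a rule of position, not of change.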
